A study of Mus musculus with 4 samples.

Results

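The annexins and their S100 partners were followed in the dorsal cortex of mouse embryos, as 7 annexin genes (Anxa1, Anxa2, Anxa3, Anxa4, Anxa5, Anxa6 and Anxa11) and 3 S100 genes (S100a6, S100a10 and S100a11) among 19938 measured genes. Each gene is represented by the array feature that carries its symbol alone, chosen by the highest mean log2 value over the 4 arrays. The genes themselves were picked with results of this comparison known, so their differences between the groups are given as a description and not as a test. The 2 mutant samples were Mek1fl/fl, Mek2-/- and NestinCre, and the 2 control samples were Mek1fl/wt and Mek2-/-, all at E18.5 (embryonic day). By these genotype labels every sample is null for Mek2 and the controls keep a wild-type copy of Mek1. In the submitters' description of the design the controls are instead given as WT; the genotype labels were followed, and whether the groups differ in Mek1 alone or in both genes rests on them. NestinCre expresses Cre recombinase in neural progenitors, so cells of other origins, such as vessels, meninges and microglia, are outside its main domain. The transgene is named for the mutants only, and its own effect cannot be told apart from that of losing Mek1. RNA was measured on single-colour whole-transcript arrays, and values are log2 expression as normalized by the authors with RMA.

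Annexins are cytosolic proteins that bind acidic membrane phospholipids when calcium rises, and they act in membrane repair, vesicle traffic and the link between membranes and actin. Most S100 proteins are small calcium sensors that form dimers, and several of the family clamp the tail of an annexin so that a pair of membranes can be bridged. S100a10 with Anxa2, S100a11 with Anxa1 and S100a6 with Anxa11 are well-known pairs. In the brain most annexins are better known from vessels, meninges, ependyma and immune cells than from neurons, while S100a10, also called p11, is used as a marker of layer 5 projection neurons and is known for carrying serotonin receptors to the cell surface.

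The promoters of some members are printed here, not as a comparison of members that were higher in the mutants with members that were not. The RefSeq promoter table (GRCm38.p6) held 7 of the 10 genes, and Anxa3, Anxa6 and S100a10 were not among them. Each window runs from 250 bases before the start of the gene to 50 bases after it. Anxa1 and Anxa5, the first and second lines here, were higher in the mutants on every array, and Anxa2 and S100a11, on the lines after them, overlapped between the groups. Capitals mark a core promoter box, TATAAA, and the motif of AP-1, the factor made of FOS and JUN proteins, which was searched as TGANTCA; both strands were read.
Anxa1, chr19:20390622-20390921, minus strand: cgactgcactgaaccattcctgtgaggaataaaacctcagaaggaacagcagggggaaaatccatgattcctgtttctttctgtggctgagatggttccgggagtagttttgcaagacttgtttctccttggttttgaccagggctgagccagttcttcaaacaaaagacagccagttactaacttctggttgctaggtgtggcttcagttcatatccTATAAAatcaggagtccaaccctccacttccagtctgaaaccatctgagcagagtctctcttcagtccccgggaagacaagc
Anxa5, chr3:36475838-36476137, minus strand: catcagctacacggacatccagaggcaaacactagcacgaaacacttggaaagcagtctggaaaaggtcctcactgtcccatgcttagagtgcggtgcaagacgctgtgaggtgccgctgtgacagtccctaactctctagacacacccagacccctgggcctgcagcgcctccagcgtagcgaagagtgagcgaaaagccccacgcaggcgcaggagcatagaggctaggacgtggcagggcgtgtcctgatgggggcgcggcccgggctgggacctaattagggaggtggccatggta
Anxa2, chr9:69453433-69453732, plus strand: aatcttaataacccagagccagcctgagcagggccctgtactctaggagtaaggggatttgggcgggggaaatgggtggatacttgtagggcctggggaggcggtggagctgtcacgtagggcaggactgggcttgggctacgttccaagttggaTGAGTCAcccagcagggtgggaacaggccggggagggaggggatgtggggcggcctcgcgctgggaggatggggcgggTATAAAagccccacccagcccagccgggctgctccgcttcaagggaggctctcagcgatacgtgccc
S100a11, chr3:93520246-93520545, plus strand: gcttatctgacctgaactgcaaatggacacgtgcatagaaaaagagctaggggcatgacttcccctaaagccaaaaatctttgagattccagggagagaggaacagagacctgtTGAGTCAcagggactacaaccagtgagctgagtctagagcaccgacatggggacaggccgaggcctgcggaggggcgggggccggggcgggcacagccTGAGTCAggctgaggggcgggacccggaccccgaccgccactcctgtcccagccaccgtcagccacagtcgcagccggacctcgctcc
The Anxa1 window held the core promoter box at position -32 from the start, and the Anxa2 window held it at position -17. The AP-1 motif was found at -95 in the Anxa2 window and at -136 and -38 in the S100a11 window. The windows of Anxa4, Anxa11 and S100a6, which are not printed, held neither the core promoter box nor the AP-1 motif. These genes overlapped between the groups too. Over all 32851 windows of this length, 13.6% held the core promoter box and 7.81% held the AP-1 motif. A GC box (GGGCGG) stood in windows of Anxa2, Anxa4, Anxa11 and S100a11, against 35.7% of all windows. The letters of an ETS motif, searched as CCGGAAG, were in no member's window, against 8.86% of all. The Anxa5 window held none of these motifs on either strand, which describes this window only.

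The arrays were much alike, with medians from 7.11 to 7.13 and root mean square differences of 0.191 between the mutants and 0.149 between the controls over the 13956 genes bright enough to be tested. A gene was tested if its mean over the 4 arrays reached the 30th percentile (log2 6.16), and 9 of the 10 members did. In limma, 141 genes (1.01%) were lower and 2 genes (0.0143%) were higher in the mutants at an adjusted p under 0.05. None of the 9 members was among them. Their adjusted p lay between 0.0733 for Anxa5 and 0.951 for Anxa4. With 2 samples a group an exact permutation test of a single gene cannot go below p = 0.333 (two-sided). Nothing in the labels says that the samples of a group are separate litters or embryos, though Xist and the Y-linked genes show 1 female and 1 male in each group (mutant 2 and control 1 female, mutant 1 and control 2 male). Map2k1, the gene of Mek1, was at 8.50 and 8.73 in mutants, against 8.76 and 8.84 in controls, which a feature along the whole transcript cannot read as presence or absence of the deletion. Map2k2, the gene of Mek2, was at 8.57 and 8.64 in mutants, against 8.57 and 8.47 in controls, well above the limit for dim genes, so these values do not show its loss in either group.

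Anxa1 and S100a10 had the highest and second highest differences of the 13956 genes, and Anxa5 stood at rank 73. The other tested members lay close to 0. In 4 of the 9 the groups did not overlap with the mutants higher (Anxa1, Anxa5, Anxa6 and S100a10), and in none with the mutants lower. Over all genes tested these shares were 22.8% and 21.4%, and nothing is read from the members' count, because they were picked with this contrast in view. The median difference was 0.10 over the 9, against 0.01 over all genes tested, and for the same reason nothing is read from it. The 9 include Anxa1, which passed the filter only through its mutant values, and leave out S100a6 (difference -0.02).

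**Figure D1:**
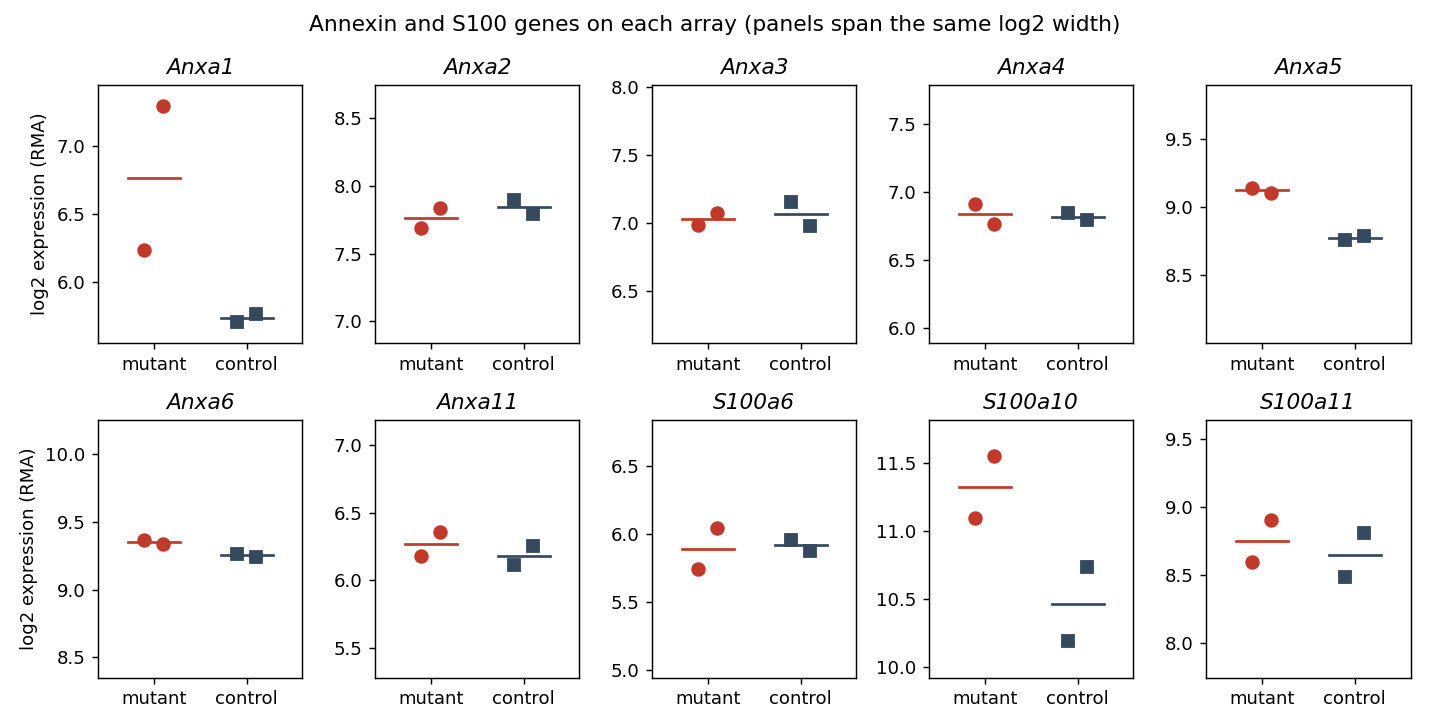
Log2 expression of the 10 genes on each array, mutants (red circles) left of controls (blue squares), with the mean of each group as a line; every panel spans the same log2 width. Anxa1, Anxa5, Anxa6 and S100a10 have both mutants above both controls, and the 2 Anxa1 mutants lie 1.06 apart.

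**Figure D2:**
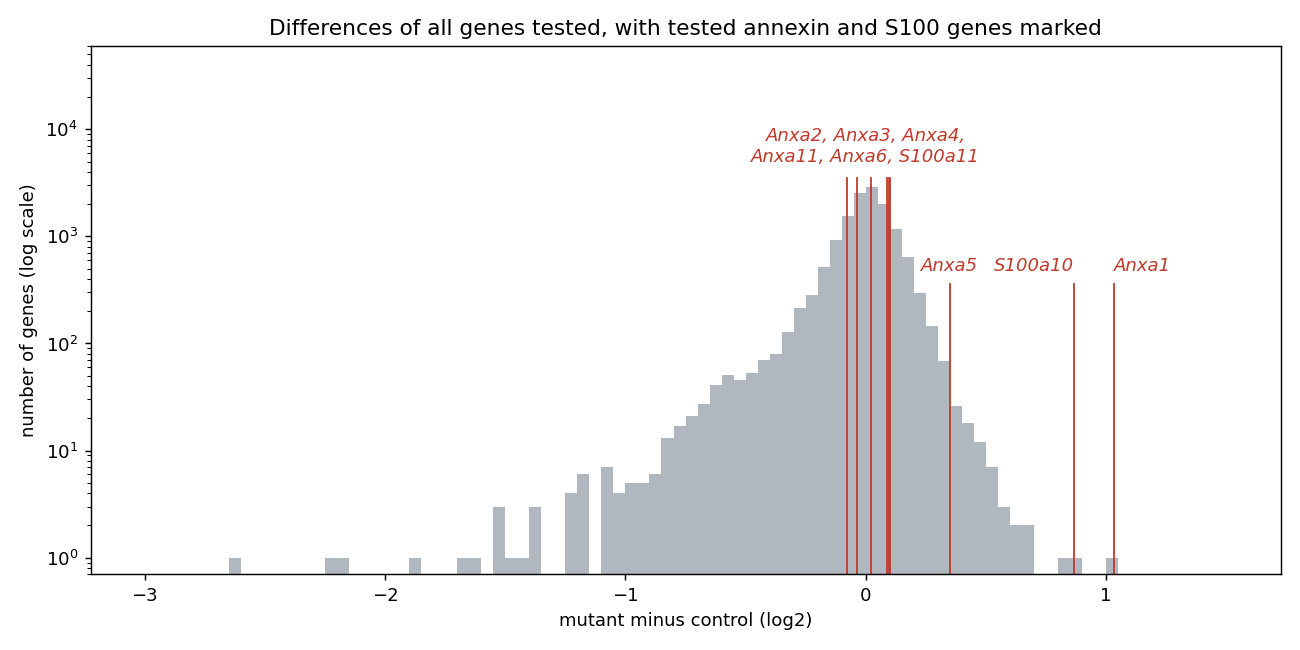
Number of genes (log scale) at each mutant minus control difference (log2) over the 13956 genes tested, with 9 annexin and S100 genes as red lines. Anxa1 (1.03) and S100a10 (0.86) lie at the right end of the distribution, Anxa5 (0.35) on its shoulder and the other 6 between -0.08 and 0.10.

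S100a10 and Anxa2, which form the best-known annexin and S100 complex and serve as a plasminogen receptor at the cell surface, had unlike differences. S100a10 was at 11.10 and 11.55 in mutants, against 10.19 and 10.73 in controls. All 4 arrays kept the groups apart, but each group spread widely, by 0.46 between the mutants and 0.55 between the controls. The difference was 0.86 ± 0.23 on the log2 scale (SE, n = 2 each), a 1.82-fold higher level in mutants (limma adjusted p = 0.209). It was 1.37 between the female samples and 0.36 between the male samples. Anxa2, the annexin of the pair, was at 7.69 and 7.84 in mutants, against 7.89 and 7.79 in controls. Its groups overlapped and its difference was -0.08 ± 0.08 (SE, n = 2 each). Whether S100a10 and Anxa2 differ in their response was not tested, since both were picked with these values known.

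Markers of deep-layer projection and subplate neurons, among them the neurons in which S100a10 is best known, gave mixed values. Of 13 tested, 9 had a higher mean in mutants, 8 of them without overlap, 2 were lower without overlap, and none was called; over all genes tested these shares without overlap were 22.8% higher and 21.4% lower. The median difference was 0.14. Hs3st4, a heparan sulfate sulfotransferase, differed by 0.45 (limma adjusted p = 0.0648) and the transcription factor Nfe2l3 by 0.38 (adjusted p = 0.136). The mean level of the 14 markers was 9.060 and 8.998 in mutants, against 8.928 and 8.882 in controls. Fezf2 and Bcl11b, the factors that define subcerebral neurons, differed by 0.10 and 0.06. Sox5, Foxp2, Nxph4 and Tle4 of the same list differed by 0.41, 0.33, 0.17 and 0.16, all without overlap. Ccn2 and Moxd1, markers of subplate and deep-layer neurons, differed by -0.22 and -0.24 without overlap, Crym, a marker of deep-layer neurons, by -0.14 and Nr4a2, a subplate nuclear receptor, by -0.01. The part of these cells in the S100a10 difference was not tested, and in tissue RNA more cells of a type and more RNA per cell cannot be told apart.

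Anxa1, a protein induced by glucocorticoids that limits inflammation through formyl peptide receptors, was low in the controls and uneven in the mutants. It was at 6.24 and 7.29 in mutants, against 5.71 and 5.76 in controls. The mutants differed from each other by 1.06, as much as the group means did, whereas the controls lay 0.06 apart. The difference was 1.03 ± 0.33 on the log2 scale (SE, n = 2 each), or 2.04-fold (limma adjusted p = 0.287). Without mutant 1 it was 1.56 and without mutant 2 it was 0.50, and in these fits, which take their spread from the 2 controls alone, the adjusted p was 0.000914 and 0.0120. The control mean of 5.73 lies under the limit for dim genes, so Anxa1 was tested only through its mutant values, and RMA shrinks differences at such low levels. S100a11, which binds the Anxa1 tail, was at 8.59 and 8.90 in mutants, against 8.48 and 8.81 in controls. Its groups overlapped, with mutant 1 below control 2, and the difference was 0.10 ± 0.15 (SE, n = 2 each). A second, slightly dimmer S100a11 feature with the same transcript accessions differed by 0.14.

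Markers of vessels, meninges, immune cells, choroid plexus, ependyma and blood were checked beside Anxa1. Meningeal fibroblast markers (7 tested) had a median difference of 0.05, endothelial markers (10 tested) 0.03 and mural cell markers (8 tested) 0.02, and none of their members was called. Col3a1, a fibrillar collagen, differed by 0.14 and the growth factor Igf2 by 0.18. The proteoglycan Dcn differed by -0.55, at 6.70 and 7.84 in mutants, against 7.84 and 7.81 in controls. The 4 other meningeal markers were too dim to be tested. Of these, Ogn and Lum differed by 0.40 and 0.26 and Slc6a13 by -0.10, each without overlap, and Aldh1a2 by 0.07 with overlap. In endothelium the cadherin Cdh5 differed by 0.06 and Eng, a TGF-beta co-receptor, by -0.18, and in mural cells Abcc9, a potassium channel subunit of pericytes, by 0.27 and Acta2, smooth muscle actin, by 0.19 (limma adjusted p = 0.306 for Abcc9 and higher for the others). The mural markers Myh11, a smooth muscle myosin, and Notch3, a receptor of mural cells, differed by -0.13 and -0.10, both without overlap. Of the 8 mural markers tested, 3 were higher without overlap, Abcc9 and Acta2 among them, and 2 were lower. Of the 7 meningeal markers tested, 3 were higher and 0 lower without overlap, and of the 10 endothelial markers 1 was higher and 0 lower. Over all genes tested these shares were 22.8% higher and 21.4% lower. The mean level of the 11 meningeal markers was 6.68 and 6.80 in mutants, against 6.72 and 6.67 in controls. That of the 11 endothelial markers was 7.58 and 7.75 in mutants, against 7.70 and 7.65 in controls. Microglia markers (9 tested) had a median difference of -0.25. Among them Fcrls, a microglial receptor, fell 1.58-fold (limma adjusted p = 0.0254), with a mutant mean of 6.07 under the limit for dim genes, so that it was tested only through its control values. Of the 9, 6 were lower without overlap, as were 21.4% of all genes tested. Among 3 tested choroid plexus and ependyma markers, Foxj1, the ciliogenesis factor of ependyma, differed by 0.15 and the folate receptor Folr1 by -0.12 (limma adjusted p = 0.353 and 0.527). Ttr, the transthyretin of choroid plexus, was at 6.50 and 7.17 in mutants, against 6.67 and 9.15 in controls. Among 3 tested red cell markers Alas2, the heme synthesis enzyme of red cells, differed by -0.23 and the anion exchanger Slc4a1 by -0.08 (limma adjusted p = 0.236 and 0.702). The part of these cells in the Anxa1 difference was not tested.

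Anxa11 and S100a6, the third pair, were both dim. Anxa11, which tethers RNA granules to moving lysosomes in neurons, was at 6.18 and 6.36 in mutants, against 6.11 and 6.25 in controls, and the groups overlapped (difference 0.09 ± 0.09, SE, n = 2 each). S100a6, also called calcyclin, was at 5.74 and 6.05 in mutants, against 5.96 and 5.88 in controls. The mutant values lay on either side of the controls, and the mean fell under the limit for dim genes, so it was not tested. Anxa11, with a mean of 6.23, stood just above that limit, as Anxa1 did at 6.25.

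Anxa5 differed by a similar amount, 0.31 to 0.39, in each of the 4 mutant and control array pairs. This annexin binds phosphatidylserine and is widely used to stain dying cells. It was at 9.14 and 9.11 in mutants, against 8.76 and 8.79 in controls. The arrays of a group lay within 0.04 of each other, and the groups were 0.35 ± 0.06 apart on the log2 scale (SE, n = 2 each), a 1.27-fold higher level in mutants. The difference was the same in females and males (0.35 each). Its adjusted p of 0.0733 in limma missed the threshold, and it was 0.0468 under a stricter filter on dim genes and 0.0417 when the prior followed intensity, but 0.178 without a filter, 0.185 with embryo sex as a covariate and 0.0895 after further quantile normalization.

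Anxa6, the long annexin with a duplicated core that brings the RAS regulator p120GAP to membranes, was at 9.36 and 9.34 in mutants, against 9.26 and 9.24 in controls. The groups did not overlap, yet the difference was small (0.10 ± 0.05, SE, n = 2 each; limma adjusted p = 0.522). Rasa1, the gene of p120GAP, differed by 0.05 (limma adjusted p = 0.764). A dimmer Anxa6 feature differed by 0.20, with mutants at 7.26 and 7.05 and controls at 7.05 and 6.87. Anxa3, known from microglia and endothelium, was at 6.99 and 7.07 in mutants, against 7.15 and 6.98 in controls. Anxa4, an annexin of secretory epithelia, was at 6.92 and 6.76 in mutants, against 6.85 and 6.79 in controls. Both overlapped between the groups, with differences of -0.04 ± 0.08 and 0.02 ± 0.07 (SE, n = 2 each).

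Among the S100 genes outside the set, 4 of the 5 that could be tested had a lower mean in the mutants. The list held 13 genes, and none was called. S100a16, a broadly expressed S100 protein, was at 7.66 and 7.51 in mutants, against 8.08 and 8.20 in controls, a difference of -0.55 ± 0.08 (SE, n = 2 each; limma adjusted p = 0.0577). S100a1, best known from heart muscle, was at 6.85 and 7.02 in mutants, against 7.69 and 7.29 in controls (-0.56 ± 0.14, SE; limma adjusted p = 0.207). S100a13, which helps release FGF1 from cells, differed by -0.36 (limma adjusted p = 0.261). These 3 did not overlap between the groups, while S100a7a (-0.02) and S100g (0.00) did. Over all genes tested 21.4% were lower without overlap, and 52.3% had a higher mean in mutants. S100b, the astrocyte S100 protein, was too dim to be tested, at 5.50 and 5.23 in mutants, against 5.71 and 5.50 in controls. Radial glia and astrocyte markers were mostly lower beside them: 6 of 9 tested were called lower (Slc1a3, Fabp7, Aldoc, Aldh1l1, Tnc and Hopx), from 1.70-fold for Hopx to 4.62-fold for Tnc (limma adjusted p between 0.00538 and 0.0254). None was called higher, and the median difference was -1.44. Over all genes tested 1.01% were called lower. Slc1a2 and Gja1 differed by -0.75 and -0.78 without overlap, with the mutants 0.91 and 1.02 apart. Gfap differed by 0.04 with overlap. The part of these cells in the S100 values was not tested. Among the 5 other annexins only Anxa7 was tested, and it was at 7.72 and 7.67 in mutants, against 7.51 and 7.56 in controls (0.16 ± 0.06, SE; limma adjusted p = 0.331).

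**Figure D3:**
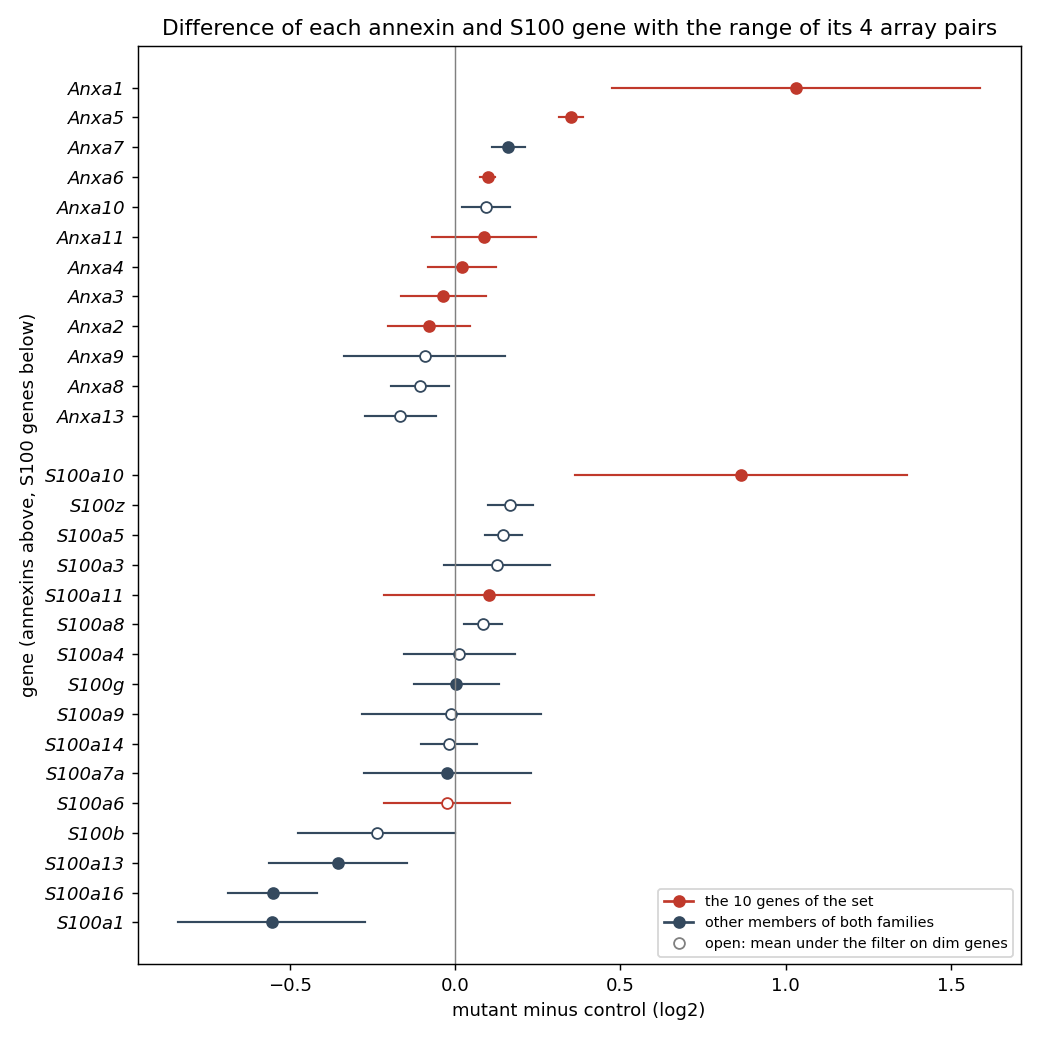
Mutant minus control difference (log2) of every annexin (above) and S100 gene (below), as a point with a line from the lowest to the highest of its 4 mutant and control array pairs; the 10 genes of the set are red, and open points were under the filter on dim genes. Anxa1 and S100a10 have the widest lines on the right, Anxa5 a narrow line at 0.35, and S100a1, S100a16 and S100a13 lie below 0 at -0.56, -0.55 and -0.36.

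Genes of binding partners stayed near 0. Of 22 on the list 14 were tested, none was called, and their differences ran from -0.14 to 0.14 with a median of 0.05. The mean was higher in mutants for 12 and lower for 2, where 52.3% of all genes tested had a higher mean. Ahnak, the giant scaffold that S100a10 and Anxa2 anchor to the membrane, was at 6.82 and 6.96 in mutants, against 6.92 and 6.76 in controls. Plat, the plasminogen activator whose action S100a10 promotes, differed by -0.14 (limma adjusted p = 0.447), and Kcnk3, a potassium channel carried by S100a10, by 0.14 (adjusted p = 0.394). Cacybp, the ubiquitin ligase adaptor that binds S100a6, differed by 0.02 and Pdcd6, which binds Anxa11, by -0.01. Fpr1, Fpr2 and Fpr3, the receptors of Anxa1, had no feature with their symbol alone and were not analysed here.

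Other proteins that bind membranes with calcium, and surface genes often found beside annexins, showed no shared direction. Of 12 tested copines, ferlins and extended synaptotagmins, 6 had a higher and 6 a lower mean, and none was called. Cpne3 differed by -0.40 (limma adjusted p = 0.0792) and Esyt1 by 0.26 (adjusted p = 0.189). Of 15 tested surface and cytoskeletal genes, 7 had a higher and 8 a lower mean, and none was called. The tetraspanins Cd63 and Cd9 had the smallest p of these, with differences of -0.31 and -0.55 (limma adjusted p = 0.129 and 0.153). All 8 tested markers of cortical neurons had a higher mean in mutants (median 0.09), as had 52.3% of all genes tested, and none was called. Neurod2 and Tubb3 differed by 0.20 and 0.17 (limma adjusted p = 0.370 and 0.382).

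**Figure D4:**
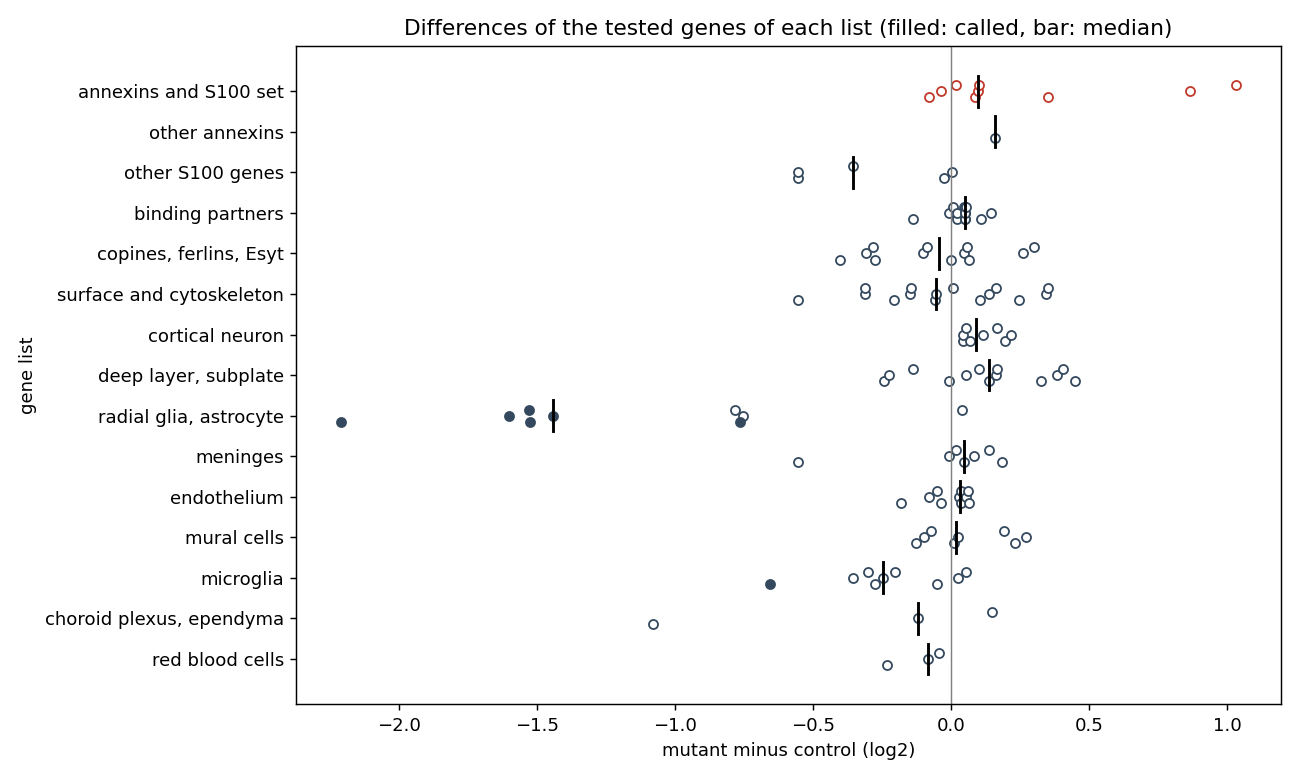
Mutant minus control difference (log2) of the tested genes of each list, with called genes filled (limma adjusted p under 0.05) and the median as a bar. The annexin and S100 set (red) has its median at 0.10 with Anxa1, S100a10 and Anxa5 to the right, and the radial glia and astrocyte list lies to the left with 6 called genes.

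The genes whose 4-array pattern came closest to Anxa1 and S100a10 were largely shared. Likeness was the Euclidean distance between log2 values centred on each gene's own mean over the 4 arrays, so it follows size as well as shape. Only 17 genes tested had a difference above 0.5, and Anxa1 and S100a10 had the highest and second highest. Few genes could lie near either, so nothing is read from the shared names. The controls lay 0.06 apart for Anxa1 and 0.55 apart for S100a10. S100a10 itself was the nearest gene to Anxa1 (distance 0.58), followed by Cnmd, the secreted chondromodulin (0.58), Ecrg4, a secreted peptide precursor (0.63), Mir369 (0.70) and Mir377 (0.75). Nearest to S100a10 were Ecrg4 (0.30), Mir377 (0.41), Cnmd (0.42), Mir369 (0.45) and Atp10d, a phospholipid flippase (0.50). Ecrg4 was at 7.14 and 7.58 in mutants, against 6.58 and 6.90 in controls, with the order of arrays that S100a10 has. Cnmd was at 6.95 and 7.26 in mutants, against 6.32 and 6.29 in controls.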

How the data were processed

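The values analysed are the log2 expression levels deposited by the authors, who ran RMA according to the submitters' processing notes. RMA subtracts background, forces the probes of all arrays onto one distribution and gives 1 value per feature, so a change shared by most genes cannot be seen. The RMA version and genome build were not stated in any label or header read. The range of the values gave the log base. Of 35557 features 21789 have 1 gene symbol in the platform annotation, and symbols were updated by Entrez identifier (21698 matched, RefSeq GRCm38.p6). The brightest feature per gene was kept (19938 genes), and genes with a mean under the 30th percentile were left out (13956 tested). Mutants and controls, 2 arrays each, were fitted in limma 3.58.1 under R 4.3.3 (lmFit, then eBayes without trend, no covariate, 2 residual and 3.31 prior degrees of freedom), with Benjamini-Hochberg adjustment over all genes tested. The fit was tested on simulated data. Members and lists were chosen with earlier results of these data known. Named are the 10 genes, the called genes of each list or else the 2 with the smallest p, partners of a member, and the 5 genes nearest to Anxa1 and to S100a10. Fezf2, Bcl11b, Sox5, Foxp2, Nxph4, Tle4, Ccn2, Moxd1, Crym, Nr4a2, Dcn, Ogn, Lum, Slc6a13, Aldh1a2, Myh11, Notch3, Ttr, S100a13, S100a7a, S100g, S100b, Slc1a2, Gja1 and Gfap were named after their values were seen. Alternatives changed the filter, the prior, the scaling, the feature rule, the covariates and the arrays used. The number of arrays limits the precision. Deviations of same-numbered samples from their group means correlated at -0.158, and the labels do not pair them.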

Additional observations from a re-analysis of the deposited data

How the results depend on the processing

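The differences of Anxa1, Anxa5, Anxa6, Anxa11 and S100a10 were positive under every alternative that tested them. In all of these but Anxa11 the groups did not overlap, so leaving out an array could not change the sign. The filter, prior and covariate settings return the main difference, so the shared sign is no test. S100a6 was tested only without a filter (adjusted p = 0.974 in limma). Leaving out each array in turn, the difference was 0.50 to 1.56 for Anxa1, 0.33 to 0.37 for Anxa5, 0.09 to 0.11 for Anxa6, 0.59 to 1.14 for S100a10, -0.15 to -0.01 for Anxa2, -0.12 to 0.05 for Anxa3, -0.06 to 0.10 for Anxa4, 0.00 to 0.17 for Anxa11 and -0.06 to 0.26 for S100a11. Anxa6 moved to 0.12 after median centring of the arrays and to 0.15 as the mean of its features. Anxa5 passed in limma under the 50th percentile filter, with an intensity trend and without mutant 2 (adjusted p = 0.0316), and its adjusted p over the alternatives ran from 0.0316 to 0.496. For Anxa1 that range was 0.000914 to 0.738.

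With the replicate number of the labels as a block, S100a10 kept its difference of 0.86 and passed (adjusted p = 0.0402 in limma); over the alternatives its adjusted p ran from 0.0402 to 0.619. The samples share only a number, so the block is no pairing of the design. With the block 113 genes were called lower and 3 higher. The crossed block, added after seeing the data and the same as embryo sex as a covariate, called 17 genes lower and 0 higher.

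Over all genes, 141 lower and 2 higher calls became 15 and 0 with no filter, 217 and 21 with the intensity trend, and 9 to 731 lower and 0 to 150 higher without 1 array. The higher calls numbered 11 under the 50th percentile filter and 1 after further quantile normalization. S100a16 passed, lower, under the 50th percentile filter (adjusted p = 0.0392) and with the trend (0.0368), the only 1 of the other annexins and S100 genes to do so, and without 1 array that count was 0 to 1. Deep-layer and subplate markers gained 1 higher call under each of these 2 settings, and without 1 array had 0 to 4 higher and 0 to 1 lower. The microglia marker called, Fcrls, lost its call with no filter and with embryo sex or the crossed block. Under the 50th percentile filter Fcrls, with a mean of 6.40, was too dim to be tested. The number of microglia markers called also changed when 1 array was left out. Without 1 array, 0 to 4 calcium-dependent membrane genes, 0 to 3 surface genes and 0 to 1 meningeal markers were lower, and 0 to 2 surface genes higher. Fits without 1 array assume that the lone sample varies like the other group. Apart from Fcrls under the 50th percentile filter, the cause of these changes was not tested.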

Other observations

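The genes that neighbour the members on the chromosome were read for the same arrays. S100a10 and S100a11 are neighbours on chromosome 3 in the RefSeq table, and their differences were 0.86 and 0.10 (0.14 on the dimmer S100a11 feature). Tdpoz2, on the other side of S100a10, was dim, at 5.71 and 5.73 in mutants, against 5.44 and 5.45 in controls. Beside Anxa1 on chromosome 19 lie Rorb, a nuclear receptor of layer 4 neurons, at 9.42 and 8.89 in mutants, against 8.92 and 8.73 in controls, and Aldh1a1, a retinaldehyde dehydrogenase, at 6.05 and 6.09 in mutants, against 6.01 and 6.01 in controls. Qrfpr, a peptide receptor gene next to Anxa5, was at 6.49 and 6.78 in mutants, against 6.29 and 6.08 in controls. Zcchc24, next to Anxa11, was at 6.62 and 7.02 in mutants, against 7.89 and 7.91 in controls, and fell 2.11-fold (limma adjusted p = 0.0427), while Anxa11 itself overlapped between the groups.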
